A study of Mus musculus with 9 samples.

Results

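A set of 10 antioxidant genes chosen by name was followed across all libraries: the superoxide dismutases Sod1, Sod2 and Sod3, the glutathione peroxidases Gpx1 and Gpx3, the peroxiredoxins Prdx1, Prdx3, Prdx5 and Prdx6, and thioredoxin, Txn1. All 10 were found among the 34669 genes of the table, and all 10 passed the filter on low values, set at 0.5 FPKM in the mean of all libraries (FPKM is fragments per kilobase of exon, scaled to the depth of the library). RNA was taken from the renal cortex of wild-type male C57BL/6 mice aged 10 weeks at purchase and sequenced as paired-end mRNA libraries. The TJ0113 group had 3 libraries from mice with bilateral ischemia-reperfusion injury (bIRI), in which both renal pedicles were clamped for 30 minutes. These mice received TJ0113, a compound the labels give only by this code name (also spelled TJ013), as a gavage each day, starting 3 days before the operation and ending at death 14 days after it. The vehicle group had 3 libraries from mice with the same clamping and the same gavage schedule of vehicle. The sham group had 3 libraries from mice operated on without clamping, for which the labels give no gavage. They do not say whether each library is 1 mouse, nor at what time sham kidneys were taken, so p-values measure the spread between these samples.

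Superoxide dismutases turn superoxide into hydrogen peroxide and oxygen, in the cytosol (Sod1), the mitochondrial matrix (Sod2) and the extracellular space (Sod3). The peroxide is then reduced to water by glutathione peroxidases, which are selenoproteins here and spend glutathione, or by peroxiredoxins, most of which are recharged by thioredoxin and, through thioredoxin reductase, by NADPH. The proximal tubule, rich in mitochondria and sensitive to ischemia, is the main source of the circulating enzyme encoded by Gpx3.

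In these data Txn1 was higher in all 6 injured libraries than in any sham library. With TJ0113 50.5% of all tested genes lay wholly above sham, and with vehicle 45.9% did. At 1.76 times the sham mean with TJ0113, Txn1 was the one change among the 10 genes that passed the test. In TJ0113 against sham 28.9% of all tested genes passed as higher. Sod1, Sod2 and Sod3 were each lower in all 3 vehicle libraries than in any sham library, at 0.65 to 0.74 of the sham mean. They did not pass the test in the main fit of all 9 libraries. In alternative fits given below some of them passed. Of all tested genes 10.9% lay wholly below sham with vehicle. None of the 10 passed the test between TJ0113 and vehicle, and 0.0% of all tested genes did.

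The 10 genes ranged from 29.9 to 8660 FPKM in mean level over the 9 libraries. Gpx3, at 8660 FPKM, ranked 5 among all genes of the table and held 1.42% to 3.03% of all FPKM in a library. Gpx1 followed at 1414 FPKM (rank 14) and Prdx5 at 481.5 FPKM (rank 60). Txn1 and Prdx1 (255 and 253 FPKM), Prdx3 and Sod3 (103 and 102 FPKM), and Prdx6 and Sod2 (30.6 and 29.9 FPKM) formed pairs whose ranges over the libraries overlapped. Sod1 stood at 142 FPKM, but its exons of all annotated transcripts span 3970 bases against 641 for its principal transcript. On principal transcript lengths its level was 881 FPKM, the third of the 10, while Gpx3 and Gpx1 kept the first places. In GRCm38 (GENCODE M21) Txn1 lies on the minus strand at chr4:57943373-57956411, and the dismutases lie on the plus strand at chr16:90220754-90226329 (Sod1), chr17:13006846-13040063 (Sod2) and chr5:52363791-52371418 (Sod3).

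Each library held 31200000 to 42700000 fragments as implied by the smallest steps of its FPKM values, and the 10 genes had 3100 to 880454 fragments per library by the same reckoning, so the spread between libraries was the main error. Proximal tubule markers, 12 genes, summed to 3783 to 5502 FPKM with TJ0113, 2625 to 5375 with vehicle and 6212 to 6912 in sham. Of the 12, 4 were called lower in TJ0113 against sham, 6 in vehicle against sham and 0 in TJ0113 against vehicle. Of all tested genes 5.92%, 5.42% and 0.0% were called lower in those comparisons. Macrophage markers, 10 genes, summed to 513 to 1041, 310 to 1818 and 42.3 to 61.4 FPKM in the same groups. Vehicle library 2 stood apart from the other vehicle libraries, with the group's highest proximal tubule sum (5375) and lowest macrophage sum (310). Fewer cells of a type and less RNA per cell cannot be told apart in such bulk samples.

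**Figure D1:**
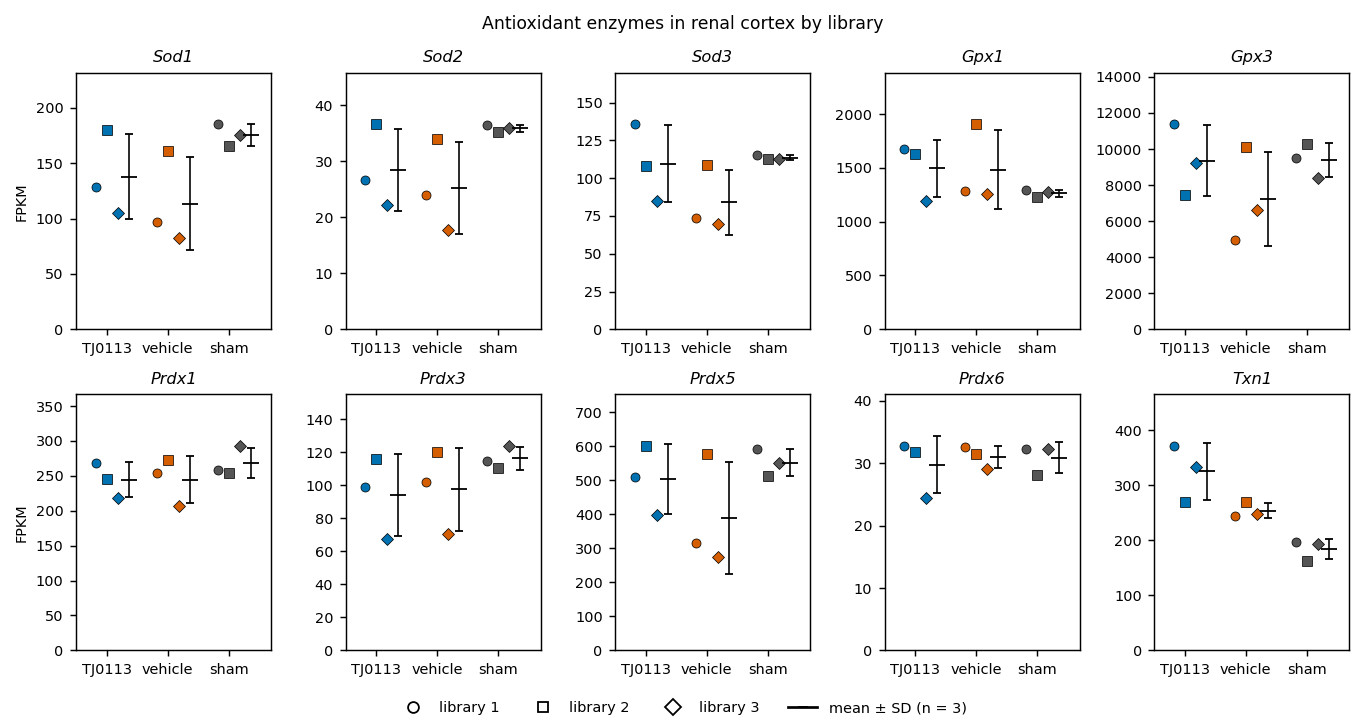
FPKM of each gene in each library (symbols) with the group mean and SD (bars, n = 3), linear axes from 0, groups TJ0113, vehicle and sham. Txn1 lay above every sham library in all 6 injured libraries, and vehicle library 2 (square) lay near sham for the dismutases and Prdx5.

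Sod1, the cytosolic copper-zinc enzyme, had 128, 180 and 105 FPKM in the TJ0113 libraries, 97.3, 161 and 82.4 FPKM in the vehicle libraries, and 185, 166 and 175 FPKM in sham. All vehicle libraries were below the lowest sham library, library 2 narrowly, and the TJ0113 libraries overlapped both other groups. The means were 138 ± 38.2, 114 ± 41.7 and 175 ± 9.58 FPKM (SD, n = 3 each). The change on the log2(FPKM + 1) scale was -0.68 ± 0.27 (SE) for vehicle against sham (limma adjusted p = 0.0718), -0.38 ± 0.27 for TJ0113 against sham (adjusted p = 0.281) and 0.30 for TJ0113 against vehicle, with a 95% interval from -0.31 to 0.91 (adjusted p = 0.87).

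Sod2, the manganese enzyme of the mitochondrial matrix, had 26.6, 36.6 and 22.3 FPKM with TJ0113, 24.0, 34.0 and 17.7 FPKM with vehicle, and 36.6, 35.2 and 35.9 FPKM in sham. The sham libraries lay close together (SD 0.696), whereas the vehicle libraries had an SD of 8.23. Vehicle was again below sham without overlap, at -0.54 ± 0.24 (limma adjusted p = 0.0971). TJ0113 differed from sham by -0.35 ± 0.24 (adjusted p = 0.26) and from vehicle by 0.19, interval -0.35 to 0.72 (adjusted p = 0.927). Sod1 and Sod2 followed each other closely: their log2 deviations from the sham mean were farthest apart in vehicle library 1 (-0.84 and -0.56), and each was the other's nearest among the 10 genes (root-mean-square difference 0.107).

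Sod3, the secreted dismutase that binds heparan sulfate, had 136, 108 and 84.9 FPKM with TJ0113, 73.6, 108 and 69.8 FPKM with vehicle, and 115, 113 and 112.5 FPKM in sham. TJ0113 library 1 was the highest of all 9, while vehicle did not overlap sham. The changes were -0.46 ± 0.21 for vehicle against sham (limma adjusted p = 0.113), -0.08 ± 0.21 for TJ0113 against sham (adjusted p = 0.793) and 0.38 for TJ0113 against vehicle, interval -0.10 to 0.87 (adjusted p = 0.81). Sod3 made up 33.3% to 46.7% of summed dismutase FPKM with TJ0113, 35.7% to 41.1% with vehicle and 34.2% to 35.9% in sham.

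Each dismutase was lowest in vehicle libraries 1 and 3 and TJ0113 library 3, the 3 libraries where proximal tubule markers were lowest. Vehicle libraries 1 and 3 had a mean deviation of those markers of -1.40 and -1.42 from sham (log2) and Sod1 deviations of -0.84 and -1.08. Vehicle library 2 had -0.52 for the markers and -0.12 for Sod1. TJ0113 libraries 1, 2 and 3 had -0.39, -0.65 and -1.10 for the markers and -0.45, 0.04 and -0.73 for Sod1. The part of tubule content in the Sod1, Sod2 and Sod3 values was not tested. Without vehicle library 2, vehicle against sham came to -0.96 for Sod1 (limma adjusted p = 0.00824), -0.77 for Sod2 (adjusted p = 0.0152), -0.66 for Sod3 (adjusted p = 0.02) and -0.90 for Prdx5 (adjusted p = 0.00968). These 4 of 10 genes then passed as lower, where 8.81% of all tested genes did. Without vehicle library 3 the same changes came to -0.48 (limma adjusted p = 0.221), -0.32 (adjusted p = 0.305), -0.34 (adjusted p = 0.295) and -0.37 (adjusted p = 0.379), and without vehicle library 1 to -0.60, -0.53, -0.38 and -0.46 (adjusted p from 0.175 to 0.322). Under median-ratio scaling Sod1 (-1.10, limma adjusted p = 0.0447) and Sod3 (-0.87, adjusted p = 0.0479) passed, and Sod2 (-0.94, adjusted p = 0.051) did not.

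**Figure D2:**
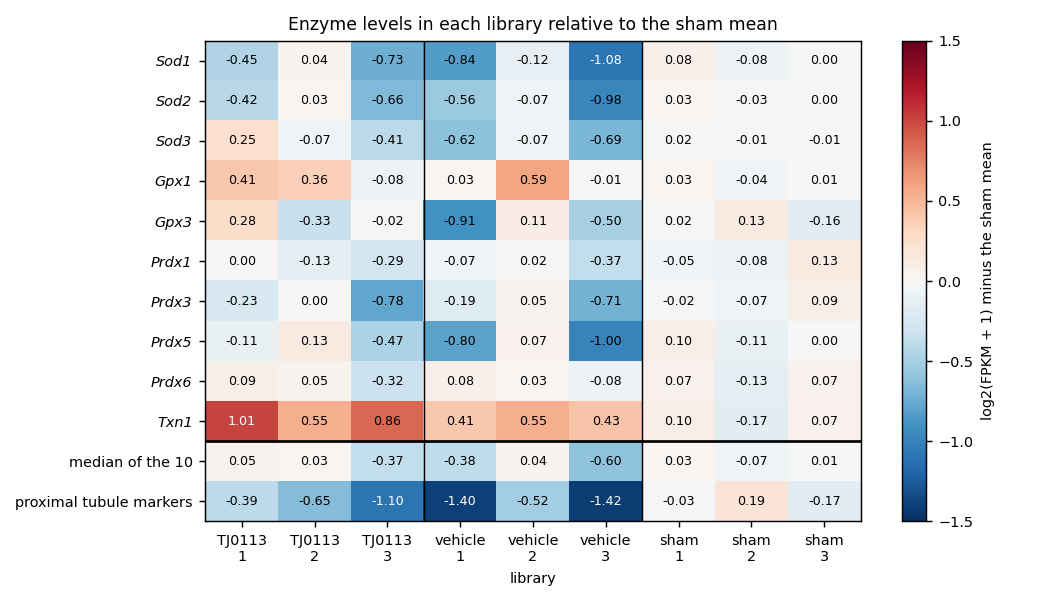
Log2(FPKM + 1) of each gene minus its sham mean in each of the 9 libraries, with the median of the 10 genes and the mean of 12 proximal tubule markers below the line. Red is above and blue below the sham mean; TJ0113 library 3 and vehicle libraries 1 and 3 are blue for the dismutases and Prdx5, and Txn1 is red in all 6 injured libraries.

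Gpx1, the abundant intracellular glutathione peroxidase, had 1675, 1624 and 1193 FPKM with TJ0113, 1289, 1904 and 1253 FPKM with vehicle, and 1291, 1225 and 1273 FPKM in sham. All 3 groups overlapped. The changes were 0.20 ± 0.29 for vehicle against sham (limma adjusted p = 0.583), 0.23 ± 0.29 for TJ0113 against sham (adjusted p = 0.545) and 0.03 for TJ0113 against vehicle, interval -0.63 to 0.68 (adjusted p = 0.995).

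Gpx3, the secreted enzyme of plasma, had 11363, 7445 and 9246 FPKM with TJ0113, 4975, 10102 and 6628 FPKM with vehicle, and 9504, 10273 and 8404 FPKM in sham. Vehicle libraries 1 and 3 lay below every sham library and vehicle library 2 lay inside the sham range. The mean was 9351 ± 1962 FPKM with TJ0113, 7235 ± 2617 with vehicle and 9394 ± 939 in sham (SD, n = 3 each). None of its changes passed (vehicle against sham -0.43 ± 0.53, limma adjusted p = 0.521), and the interval for TJ0113 against vehicle was wide, from -0.78 to 1.60 (adjusted p = 0.928). The ratio of Gpx3 to Gpx1 within a library, which does not depend on scaling between libraries, was 6.78, 4.58 and 7.75 with TJ0113, 3.86, 5.31 and 5.29 with vehicle, and 7.36, 8.38 and 6.60 in sham. Vehicle and sham ratios did not overlap, while TJ0113 spanned both; the ratio was not tested.

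Prdx1, the cytosolic peroxiredoxin, had 269, 246 and 219 FPKM with TJ0113, 255, 272 and 207 FPKM with vehicle, and 259, 254 and 293 FPKM in sham. Its groups overlapped throughout, vehicle and TJ0113 each differed from sham by -0.14 ± 0.18 (limma adjusted p = 0.527 and 0.544), and TJ0113 against vehicle gave 0.00 with an interval from -0.39 to 0.40 (limma adjusted p = 0.999). Prdx3, the peroxiredoxin of mitochondria, had 98.8, 116 and 67.2 FPKM with TJ0113, 102, 120 and 70.5 FPKM with vehicle, and 115, 111 and 124 FPKM in sham. Library 3 was the lowest in both injured groups, and no change passed (TJ0113 against sham -0.34 ± 0.24, limma adjusted p = 0.284, and vehicle against sham -0.28 ± 0.24, adjusted p = 0.358).

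Prdx5, which acts in mitochondria, peroxisomes and cytosol, had 510, 602 and 398 FPKM with TJ0113, 315, 579 and 275 FPKM with vehicle, and 591, 511 and 552 FPKM in sham. Vehicle libraries 1 and 3 were the lowest of the 9 and vehicle library 2 was within the sham range. Vehicle differed from sham by -0.58 ± 0.30 (limma adjusted p = 0.144) and TJ0113 from vehicle by 0.43, interval -0.24 to 1.10 (adjusted p = 0.838). Prdx5 held 56.0% to 60.5% of the summed FPKM of Prdx1, Prdx3, Prdx5 and Prdx6 with TJ0113, 44.7% to 57.7% with vehicle and 55.1% to 59.3% in sham. It overlaps Trmt112 on the opposite strand over 360 bases, and the sources used here do not say whether fragments were counted by strand.

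Prdx6, which reduces peroxides with glutathione and also has phospholipase activity, was the most even of the 10 among the vehicle and sham means. It had 32.9, 31.9 and 24.5 FPKM with TJ0113, 32.6, 31.4 and 29.1 FPKM with vehicle, and 32.4, 28.0 and 32.3 FPKM in sham. Vehicle against sham came to 0.01, interval -0.31 to 0.32 (limma adjusted p = 0.973), and TJ0113 against vehicle to -0.07, interval -0.38 to 0.25 (adjusted p = 0.965).

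**Figure D3:**
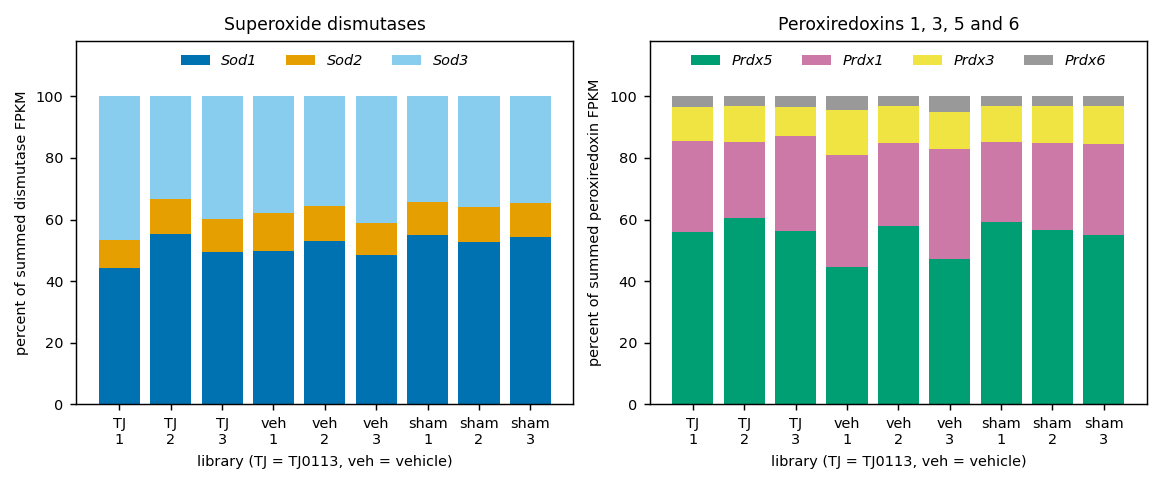
Share of each gene in the summed FPKM of the dismutases (left) and of the 4 peroxiredoxins (right) in each library, as stacked bars that add to 100%. Prdx5 took a smaller share in vehicle libraries 1 and 3 (44.7% and 47.3%) than in the other 7.

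Txn1, thioredoxin, the small protein that returns electrons to peroxiredoxins, had 372, 270 and 334 FPKM in the TJ0113 libraries, 245, 269 and 248 FPKM in the vehicle libraries, and 198, 163 and 192 FPKM in sham. The 3 groups did not overlap, although the lowest TJ0113 library (270.1) and the highest vehicle library (268.9) all but touched. The means were 325 ± 51.6 FPKM with TJ0113, 254 ± 13.0 with vehicle and 184 ± 18.5 in sham (SD, n = 3 each). TJ0113 was above sham by 0.81 ± 0.18 (log2, interval 0.41 to 1.21, limma adjusted p = 0.0129), which left it 0.55 above the median tested gene, since that gene itself stood at 0.26. Vehicle was above sham by 0.46 ± 0.18 (interval 0.06 to 0.86, adjusted p = 0.0647) and TJ0113 above vehicle by 0.34 ± 0.18 (interval -0.05 to 0.74, adjusted p = 0.808).

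Median-ratio scaling, which sets the median gene to no change, brought Txn1 in vehicle against sham down to 0.05 (limma adjusted p = 0.875) and in TJ0113 against sham to 0.44 (adjusted p = 0.121), where the call was lost. That call was also lost without sham library 2 (0.72, adjusted p = 0.0614) and without sham library 3 (0.84, adjusted p = 0.0504). Within libraries, the ratio of Txn1 to Prdx1, its substrate, was 1.39, 1.10 and 1.53 with TJ0113, 0.96, 0.99 and 1.20 with vehicle, and 0.76, 0.64 and 0.66 in sham. Sham ratios lay below every injured library, and the TJ0113 and vehicle ratios overlapped; these ratios were not tested. Of the 10 genes Txn1 was the least like any other: its nearest was Gpx1, at a root-mean-square difference of 0.429 between their log2 deviations over the 9 libraries.

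Of 10 genes tested, 0 were called in vehicle against sham, where 36.7% of 15453 tested genes were (31.3% higher and 5.42% lower, but 15.9% and 15.3% under median-ratio scaling). Unadjusted p was under 0.05 for 3 of the 10 (Sod1, Sod2 and Txn1), against 50.8% of all tested genes. Non-overlap with sham held for 4 of the 10, Txn1 higher and the 3 dismutases lower, where 56.8% of tested genes did not overlap (45.9% higher and 10.9% lower). In TJ0113 against sham 1 of 10 was called, against 34.8% of all tested genes (28.9% higher and 5.92% lower, but 18.6% and 18.2% under median-ratio scaling). Unadjusted p was under 0.05 there for 1 of 10, against 49.0%, and 1 of 10 did not overlap, against 65.1% (50.5% higher and 14.6% lower). For TJ0113 against vehicle 0 of 10 were called and 0.0% of all tested genes, with unadjusted p under 0.05 for 0 of the 10 and for 6.0% of all. There the single gene without overlap was Txn1, where 7.35% of tested genes did not overlap (2.96% higher and 4.39% lower).

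The median change of the 10 genes was 0.24 for TJ0113 against vehicle, -0.11 for TJ0113 against sham and -0.36 for vehicle against sham, beside -0.03, 0.26 and 0.30 for all tested genes. Thus 9 of the 10 lay below the median gene in each comparison with sham, and 2 of 10 in TJ0113 against vehicle. TJ0113 and vehicle are set against the same sham libraries, and the vehicle libraries serve in both other comparisons. Spread was wider in the injured groups: the median SD of the 10 genes was 0.30 with TJ0113, 0.37 with vehicle and 0.09 in sham (log2), and over all tested genes 0.19, 0.27 and 0.09.

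**Figure D4:**
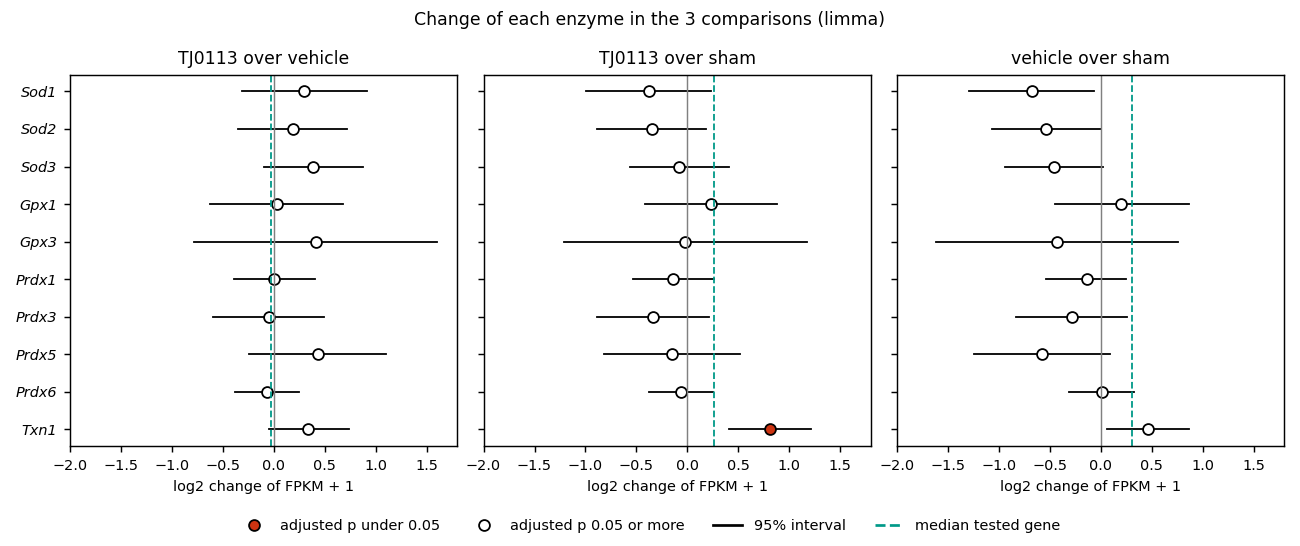
Log2 change of FPKM + 1 with its 95% interval for each gene in the 3 comparisons, and the median tested gene as a dashed line. Txn1 in TJ0113 over sham is the single filled point (adjusted p under 0.05), at 0.81.

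The 10 genes differed in the genes whose profiles lay nearest to theirs among 4686 tested genes whose mean reached 10 FPKM. For Sod1 these were Aldh4a1 and Sdhb (root-mean-square difference 0.052 and 0.069), for Sod2 Ndufa10 and Clybl (0.047 and 0.061), and for Prdx3 Atp5f1 and Acadl (0.065 and 0.083). Prdx5 lay nearest to Pbld2 and Hpn (0.075 and 0.088), and Sod3 and Gpx3 both had Ethe1 as the nearest gene (0.122 and 0.164). Second came Fads3 for Sod3 (0.123) and Pyroxd2 for Gpx3 (0.174). Gpx1 was nearest to Lsm4 and Acot8 (0.097 and 0.099), Prdx1 to Fkbp4 and Adh5 (0.061 and 0.069), and Prdx6 to Cpped1 and Opa3 (0.062 and 0.068). Txn1 was nearest to Naprt and Cd63 (0.101 and 0.12).

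Promoter sequence is shown for Txn1, the gene that passed the test, and for Sod1 and Prdx1, the 2 genes whose window holds the core of the antioxidant response element, the site bound by Nrf2 in oxidative stress. The windows are the 250 bases before the RefSeq start (GRCm38.p6), 5′ to 3′ on the gene's strand. Capitals mark matches to the core TGACNNNGC (either strand) in Sod1 and Prdx1 and to the GC box GGGCGG (either strand) in Txn1. The GC boxes of Sod1 and Prdx1 are left in lower case.
Txn1, chr4:57956412-57956661, minus strand: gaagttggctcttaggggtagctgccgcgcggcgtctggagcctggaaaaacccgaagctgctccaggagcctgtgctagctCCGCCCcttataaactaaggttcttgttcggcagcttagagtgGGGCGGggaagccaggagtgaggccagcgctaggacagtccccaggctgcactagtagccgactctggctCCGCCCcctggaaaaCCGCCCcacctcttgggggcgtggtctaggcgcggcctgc
Sod1, chr16:90220512-90220761, plus strand: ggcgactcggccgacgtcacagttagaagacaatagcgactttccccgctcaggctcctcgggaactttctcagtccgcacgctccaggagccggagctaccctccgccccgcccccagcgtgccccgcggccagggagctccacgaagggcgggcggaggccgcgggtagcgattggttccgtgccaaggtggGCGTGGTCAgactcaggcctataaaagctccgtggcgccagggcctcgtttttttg
Prdx1, chr4:116685349-116685598, plus strand: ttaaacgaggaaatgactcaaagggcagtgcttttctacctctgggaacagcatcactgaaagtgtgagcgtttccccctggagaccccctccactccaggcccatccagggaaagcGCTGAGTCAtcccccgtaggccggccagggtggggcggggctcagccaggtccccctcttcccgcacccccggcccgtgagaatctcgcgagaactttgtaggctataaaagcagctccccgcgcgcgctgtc
RefSeq gave a window for 8 of the 10 genes, without Sod3 and Prdx6, and the search covered 300 bases, 250 before and 50 after the start. The core lay 56 bases before the start in Sod1 and 133 bases before it in Prdx1, and 12.4% of 32851 promoters held one. In Prdx1 it overlapped a match to the AP-1 motif TGANTCA, which 7.8% of promoters held. GC boxes numbered 4 in the Txn1 window and 4 in those of Sod1 and Sod2, overlapping matches counted. Each of the 8 genes with a window held at least 1, as 35.7% of promoters did. The Txn1 window held neither TGACNNNGC nor TGANTCA. These matches describe the letters only.

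Of 6 further glutathione peroxidases and peroxiredoxins tested, 4 rose both in TJ0113 against sham and in vehicle against sham. Between TJ0113 and vehicle 0 were called, beside 0.0% of all tested genes. Under median-ratio scaling 2 and 1 of the 6 rose against sham. Of all tested genes 28.9% were called higher in TJ0113 against sham and 31.3% in vehicle against sham, and 18.6% and 15.9% under median-ratio scaling. The 6 were not tested against the 10 genes above. Gpx7, a peroxidase of the endoplasmic reticulum, had 5.0, 4.80 and 8.93 FPKM with TJ0113, 6.06, 2.84 and 10.7 FPKM with vehicle, and 0.68, 0.65 and 0.75 FPKM in sham. It was above sham by 2.05 ± 0.36 with TJ0113 (limma adjusted p = 0.00884) and 2.01 ± 0.36 with vehicle (adjusted p = 0.00948). Gpx8, of the same compartment, rose by 1.26 ± 0.39 and 1.18 ± 0.39, Prdx4, the secretory pathway peroxiredoxin, by 0.51 ± 0.14 and 0.59 ± 0.14, and Prdx2, a cytosolic relative of Prdx1, by 0.49 ± 0.12 and 0.43 ± 0.12 in those comparisons. Sums of 8 fibroblast and pericyte markers (229, 74.1 and 324 FPKM) and of 10 macrophage markers (959, 310 and 1818 FPKM) ordered the vehicle libraries as Gpx7 did. Endothelium, podocyte, smooth muscle and myofibroblast, T and NK cell, and adipocyte marker sums had that vehicle order too. With TJ0113 the macrophage sums (611, 513 and 1041 FPKM) had the order of Gpx7, and the fibroblast and pericyte sums (148, 152 and 239 FPKM) did not. In sham the fibroblast and pericyte sums ran from 14.6 to 22.6 FPKM and the macrophage sums from 42.3 to 61.4 FPKM. The part of these cell types in the Gpx7 values was not tested. Gpx4, which protects membrane lipids from peroxidation, had 411, 469 and 346 FPKM with TJ0113, 310, 505 and 312 FPKM with vehicle, and 383, 309 and 353 FPKM in sham, with no change called.

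Among 22 partners that reduce or regulate these enzymes, 1 rose in TJ0113 against sham and 3 in vehicle against sham, with 0 falling. Of all tested genes 28.9% and 31.3% were called higher in those comparisons, and 5.92% and 5.42% lower. Under median-ratio scaling 0 rose and 3 fell in each. With that scaling 18.6% and 15.9% of all tested genes were called higher, and 18.2% and 15.3% lower. Sesn2, a stress-induced sestrin, was the one with TJ0113, at 0.65 ± 0.12 (limma adjusted p = 0.00969), and stood at 0.34 ± 0.12 with vehicle (adjusted p = 0.0561). With vehicle these were Srxn1, the sulfiredoxin that repairs overoxidized peroxiredoxins (0.55 ± 0.13, adjusted p = 0.0171), Nxn, nucleoredoxin (0.82 ± 0.25, adjusted p = 0.0338), and Glrx3, a glutaredoxin of iron handling (0.37 ± 0.11, adjusted p = 0.0297, with a sign that turned in the alternatives, -0.03 to 0.52). With TJ0113 Srxn1 was at 0.15 ± 0.13, Nxn at 0.70 ± 0.25 and Glrx3 at 0.26 ± 0.11 (limma adjusted p = 0.378, 0.0569 and 0.0851). Catalase, Cat, had 394, 389 and 216 FPKM with TJ0113, 335, 423 and 183 FPKM with vehicle, and 480, 529 and 506 FPKM in sham. Both injured groups lay below sham without overlap, at -0.65 ± 0.34 with TJ0113 (limma adjusted p = 0.153) and -0.77 ± 0.34 with vehicle (adjusted p = 0.0969). Of all tested genes 14.6% lay wholly below sham with TJ0113 and 10.9% with vehicle. Among the 22 partners Gsr and Txndc17 also lay wholly below sham in both injured groups, without a call.

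Of 16 genes that produce superoxide or peroxide, 8 rose and 0 fell in TJ0113 against sham. In vehicle against sham 8 rose and 1 fell. Of all tested genes 28.9% and 31.3% were called higher in those comparisons, and 5.92% and 5.42% lower. Under median-ratio scaling 7 rose and 2 fell with TJ0113, and 7 rose and 3 fell with vehicle. With that scaling 18.6% and 15.9% of all tested genes were called higher, and 18.2% and 15.3% lower. Rac2, Ncf1 and Ncf4, parts of the phagocyte NADPH oxidase, rose by 2.23 ± 0.43, 1.76 ± 0.43 and 1.85 ± 0.40 with TJ0113 and by 2.21 ± 0.43, 2.10 ± 0.43 and 1.83 ± 0.40 with vehicle (log2; limma adjusted p between 0.00975 and 0.017). Macrophage markers rose beside them, 9 of 10 in each comparison with sham, and their part was not tested. Smox, spermine oxidase, which releases hydrogen peroxide, rose by 1.45 ± 0.28 with TJ0113 and 1.67 ± 0.28 with vehicle (limma adjusted p = 0.01 and 0.00878). Nox4, the oxidase of renal tubule cells, was the one that fell, by 0.87 on the log2 scale with vehicle (limma adjusted p = 0.0227; at most 0.085 over the alternatives, of which 5 lost the call, among them each that left out 1 sham library or vehicle library 1), and differed from sham by -0.52 ± 0.23 with TJ0113 (adjusted p = 0.101).

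NADPH supply was represented by 13 tested genes, of which 3 rose and 1 fell in TJ0113 against sham and 4 rose and 2 fell in vehicle against sham (2 and 4, and 3 and 2, under median-ratio scaling). Of all tested genes 28.9% were called higher and 5.92% lower with TJ0113, and 31.3% higher and 5.42% lower with vehicle. The share that rose was thus near that of all genes. Under median-ratio scaling 18.6% of all tested genes were higher and 18.2% lower with TJ0113, and 15.9% and 15.3% with vehicle. Pgd, of the pentose phosphate pathway, rose by 0.80 ± 0.14 with TJ0113 (limma adjusted p = 0.00879) and 0.92 ± 0.14 with vehicle (adjusted p = 0.00753). G6pdx, the entry enzyme of that pathway, rose by 0.41 ± 0.13 with TJ0113 (limma adjusted p = 0.0382) and 0.38 ± 0.13 with vehicle (adjusted p = 0.0463), although the alternatives ranged down to 0.06 and -0.01. Mthfd2, of mitochondrial folate metabolism, rose by 0.63 ± 0.13 and 0.79 ± 0.13, and Nadk2, the mitochondrial NAD kinase, was at -0.97 ± 0.22 in both comparisons with sham. Me2, a mitochondrial malic enzyme, rose by 0.55 ± 0.13 with vehicle (limma adjusted p = 0.0167) and was at 0.35 ± 0.13 with TJ0113 (adjusted p = 0.0661).

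Selenium is needed to make Gpx1 and Gpx3, and 8 genes of selenoprotein synthesis and selenium supply were tested. Of these 1 rose and 1 fell in each comparison with sham. In either direction 34.8% of all tested genes were called with TJ0113 and 36.7% with vehicle. Under median-ratio scaling 0 rose, and 2 and 3 fell for TJ0113 and vehicle, beside 18.2% and 15.3% of all tested genes called lower. Trnau1ap, a selenocysteine tRNA-associated protein, rose by 0.56 ± 0.13 with TJ0113 and 0.45 ± 0.13 with vehicle (limma adjusted p = 0.0147 and 0.0274). Selenop, the selenium carrier, averaged 433 FPKM with TJ0113, 484 FPKM with vehicle and 941 FPKM in sham, a change of -1.17 ± 0.39 with TJ0113 (limma adjusted p = 0.0444) and -1.07 ± 0.39 with vehicle (adjusted p = 0.0553). Sephs2, which makes selenophosphate, averaged 84.0 FPKM with TJ0113, 64.8 FPKM with vehicle and 107 FPKM in sham, a change of -0.37 ± 0.23 with TJ0113 (limma adjusted p = 0.23) and -0.76 ± 0.23 with vehicle (adjusted p = 0.0335). In all 5 lists 0 genes were called between TJ0113 and vehicle, where 0.0% of all tested genes were.

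Calls of these list genes differed in how well they held. Gpx7, Rac2, Smox and Pgd kept their calls against sham in all 22 alternatives for both injured groups. Every other call named from the lists, except Mthfd2 in vehicle against sham, was lost in 2 to 14 alternatives. Of 33 calls of the genes named by rule, which leave out Nox4, 24 were lost in at least 1 alternative. Lost were 23 without sham library 2, 20 without sham library 3, 15 with quantile normalization and 13 with median-ratio scaling.

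**Figure D5:**
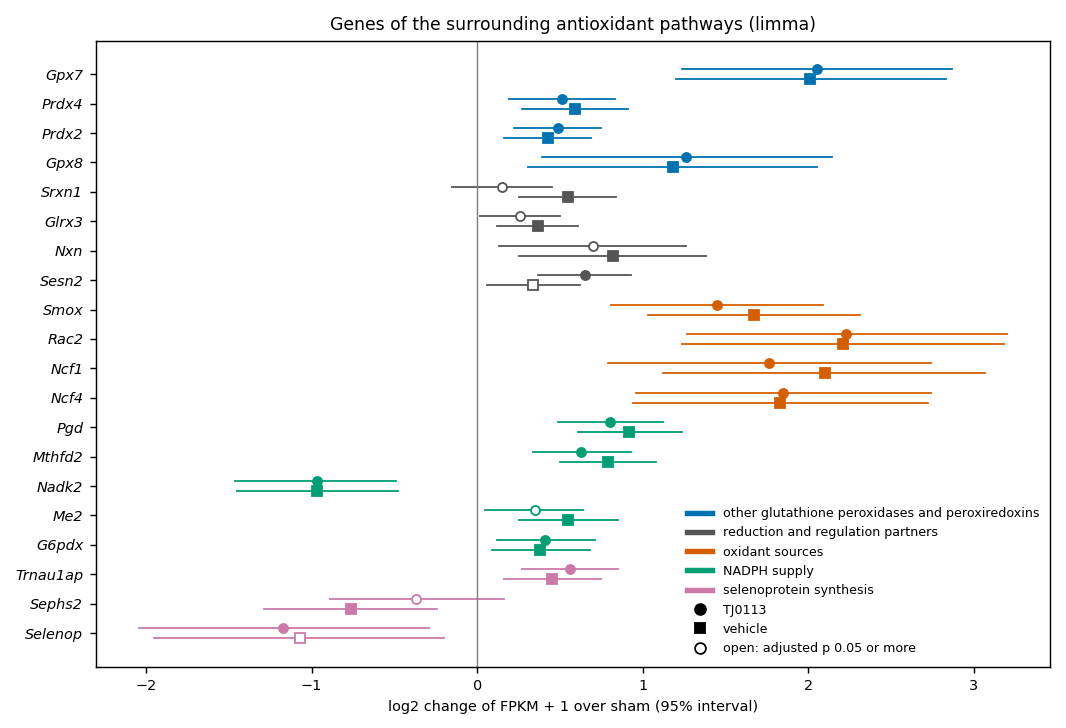
Log2 change over sham, with its 95% interval, of the list genes named by rule, for TJ0113 (circles) above vehicle (squares); filled symbols passed adjusted p under 0.05. Gpx7, Rac2, Ncf1 and Ncf4 lie farthest to the right, and Nadk2 lies at -0.97 in both.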

How the data were processed

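Paired-end mRNA libraries of 9 renal cortex samples, 3 per group, were analysed. The authors deposited FPKM per Ensembl gene in 1 table of 34669 genes; HISAT2 is named in the submitters' processing notes, and no source used here gives the counting tool or genome build. Symbols, lengths and positions came from GENCODE M21 (97.8% of IDs matched). FPKM values below 20 implied fragments lay on half-fragment steps in 98.7% to 98.9% of cases (tolerance 0.02), which gave the depth of each library.

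Here log2(FPKM + 1) of the 15453 genes whose mean reached 0.5 FPKM was fitted over all 9 libraries with limma 3.58.1 (trended variance) in R 4.3.3, with Benjamini-Hochberg adjustment over all genes and a threshold of 0.05. Fold changes on this scale understate those of low genes. Motifs were searched with Python 3.11.15, and similar copies with BLAST+ 2.17.0 (at least 95% identity over at least 100 bases and at least 25% of the principal transcript). The script was tested on simulated data.

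Sod1 has a processed pseudogene, Gm8566, whose fragments came to 2.85% to 3.84% of its own; for Prdx1 and Gm21399 this was 0.58% to 1.17%. Fragments shared with such copies may have been split. From each of 5 pathway lists up to 4 genes past the threshold with the smallest p were named per comparison; Gpx4, Cat, Nox4, Gpx6, Nnt and Gm8566 were added after their values were seen. The genes and lists were chosen with earlier results of these data known. Alternatives covered pseudocount, filter, scaling, model terms and leaving out each library.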

Additional observations from a re-analysis of the deposited data

How the results depend on the processing

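Limits: with 3 libraries a group, 1 library can decide a call, and depth was not limiting for the 10 genes (3100 fragments or more). Numbers shared between groups were not taken to pair the samples in the main fit, and the values do not settle whether they do. Deviations of same-numbered libraries correlated at -0.06, 0.5 and 0.56 for TJ0113 with vehicle. They correlated at -0.15, 0.03 and 0.03 for TJ0113 with sham, and at -0.08, -0.08 and -0.24 for vehicle with sham. No alternative was left out; array weights were estimated gene by gene. The adipocyte marker covariate was chosen after seeing the data, since those markers summed to 72.9 FPKM in TJ0113 library 2, 70.2 and 137 in vehicle libraries 1 and 3 and 263 in sham library 2, against 5.58 to 11.2 in the other 5 libraries.

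Of the 10 genes 0 changed in vehicle against sham as reported. The count was 1 with equal FPKM sums, with quantile normalization and with no variance trend (Txn1 each time). It was 2 with median-ratio scaling (Sod1 and Sod3) and 2 with the replicate block (Sod1 and Sod2, limma adjusted p = 0.0398 and 0.0458). With array weights 6 were called (Txn1 higher, and Sod1, Sod2, Sod3, Gpx3 and Prdx5 lower), as were 9737 of all 15453 tested genes. Leaving out each library gave 0 to 4. In TJ0113 against vehicle the count of 0 became 1 with array weights (Sod3, 0.71), where 468 of all tested genes were called. In TJ0113 against sham the count of 1 became 0 with median-ratio scaling and 0 or 1 with a library left out. It became 3 with array weights, where 9359 of all tested genes were called. Of all tested genes in vehicle against sham, 41.4% were called with the replicate block (6.5% lower) and 31.1% with median-ratio scaling (15.3% lower). Over all tested genes, calls in vehicle against sham (5676) came to 2933 with no filter, 9737 with array weights and 862 to 8789 with a library left out. Calls in TJ0113 against sham (5384) came to 3205, 9359 and 1272 to 7313 in those settings, and calls in TJ0113 against vehicle (0) to 468 with array weights. The cause was not tested.

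None of the values that turned sign was called. In vehicle against sham these were Gpx1 (-0.21 with median-ratio scaling), Gpx3 (0.05 with quantile normalization), Prdx1 (0.02 with equal sums) and Prdx6 (-0.40 with median-ratio scaling, -0.19 with quantile normalization, -0.06 to 0.05 with a library left out). In TJ0113 against vehicle they were Gpx1 (-0.09 with equal sums, -0.0031 with equal sums without mitochondrially encoded genes, -0.18 with quantile normalization, -0.02 with the adipocyte covariate, -0.08 to 0.22 with a library left out) and Prdx1 (-0.12 with equal sums, -0.13 with quantile normalization, -0.03 with equal sums without mitochondrially encoded genes, -0.04 with the covariate, -0.11 to 0.08 with a library left out). With a library left out, Sod2 ranged from -0.03 to 0.42, Prdx3 from -0.27 to 0.17 and Prdx6 from -0.14 to 0.06. In TJ0113 against sham they were Sod3 (0.12 with array weights, -0.24 to 0.09 with a library left out), Gpx1 (-0.14 with median-ratio scaling) and Gpx3 (0.02 with equal sums, 0.05 with quantile normalization, 0.14 with array weights, -0.17 to 0.13 with a library left out). Prdx6 was at 0.03 with array weights and from -0.14 to 0.07 with a library left out, and Prdx5 from -0.29 to 0.01.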

Other observations

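Gpx6, a relative of Gpx3 without a call, varied widely between libraries: 1.18, 20.7 and 6.29 FPKM with TJ0113, 16.6, 15.2 and 1.45 FPKM with vehicle, and 24.1, 15.5 and 18.2 FPKM in sham. TJ0113 library 1 and vehicle library 3 were lowest, and they also had the 2 lowest sums of 7 markers of the thick ascending limb and distal tubule, 292 and 454 FPKM.

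Nnt, the mitochondrial transhydrogenase that makes NADPH, did not pass the filter. It had 0.15, 0.16 and 0.14 FPKM with TJ0113, 0.10, 0.11 and 0.16 FPKM with vehicle, and 0.09, 0.09 and 0.09 FPKM in sham. The labels give the strain as C57BL/6 with no substrain.

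Gm8566, the pseudogene that resembles Sod1 (97.8% identity over 465 bases), had 32.9, 51.1 and 25.7 FPKM with TJ0113, 24.6, 45.8 and 20.8 FPKM with vehicle, and 57.6, 54.5 and 52.8 FPKM in sham, the same order of libraries within the injured groups as Sod1 itself.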
